A study of Mus musculus with 112 samples.

Results

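Aged Paneth cells were compared with aged intestinal stem cells (ISCs), each sorted from the crypts of the proximal small intestine and profiled as bulk RNA. The samples were chosen by their labels alone: every library of an aged mouse labelled as Paneth cells or as ISCs was taken, and the technical libraries of Paneth cells were summed per animal. This gave 47 of the 112 libraries of the series, 35 of Paneth cells and 12 of ISCs, or 24 of its 67 samples after summing. The 12 Paneth samples came from 7 male and 5 female mice, and the 12 ISC samples likewise from 7 males and 5 females. All mice were C57BL/6 carrying Lgr5-eGFP-IRES-CreERT2, an allele that places GFP under the control of the stem cell gene Lgr5. This knock-in is known to be silent in a share of crypts, so absence of GFP does not by itself show that a cell is not a stem cell. The aged mice were 23 to 27 months old, and a young set of 12 Paneth and 11 ISC samples, from mice of 2 to 3 months with the same strain and allele, served for the comparison of ages. The labels name no treatment for either group. Viable, EpCAM-high cells were sorted as ISCs when GFP was high and CD24 low, and as Paneth cells when CD24 and side scatter were high and GFP was absent. Both cell types were sampled from 8 animals. Libraries were made from the 3' ends of transcripts by SC3-seq, starting from 1 ng of total RNA.

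Paneth cells sit at the base of small intestinal crypts, where they alternate with Lgr5-positive stem cells. They are long-lived, non-dividing secretory cells whose granules carry antimicrobial proteins such as lysozyme and the alpha-defensins, which are cut into their active form by the protease matrilysin. They also present Wnt, EGF and Notch ligands to the neighbouring stem cells and are therefore described as part of the stem cell niche. Alpha-defensin and matrilysin genes are textbook targets of Wnt signalling through TCF factors in Paneth cells.

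The alpha-defensin genes lie in a cluster of closely related copies on chromosome 8. Promoters are shown for lysozyme 1 and for 2 alpha-defensins because these products were high together in every Paneth sample. The 250 bases before the annotated start were taken from RefSeq on GRCm38.p6, and capitals mark matches to CTTTGA, the core of the TCF/LEF motif, on either strand (TCAAAG when read from the other strand). The windows are chr10:117292869-117293118 on the minus strand for Lyz1, chr8:21025295-21025544 on the plus strand for Defa21 and chr8:21134400-21134649 on the plus strand for Defa30.
Lyz1: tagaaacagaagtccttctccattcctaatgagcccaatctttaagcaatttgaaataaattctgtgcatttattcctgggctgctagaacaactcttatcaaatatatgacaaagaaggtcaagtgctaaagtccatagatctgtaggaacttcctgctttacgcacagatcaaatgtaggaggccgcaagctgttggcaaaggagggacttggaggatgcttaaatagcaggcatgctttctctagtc
Defa21: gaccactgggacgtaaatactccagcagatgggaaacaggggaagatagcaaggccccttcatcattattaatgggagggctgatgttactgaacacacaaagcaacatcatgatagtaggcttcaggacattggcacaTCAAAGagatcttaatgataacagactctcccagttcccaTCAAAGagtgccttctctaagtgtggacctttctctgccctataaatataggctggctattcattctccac
Defa30: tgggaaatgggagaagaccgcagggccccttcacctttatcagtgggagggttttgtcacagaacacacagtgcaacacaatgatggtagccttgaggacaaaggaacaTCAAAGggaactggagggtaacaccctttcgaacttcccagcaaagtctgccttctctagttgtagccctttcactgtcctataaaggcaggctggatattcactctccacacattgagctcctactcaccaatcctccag
The core occurred at positions -111 and -71 from the start in Defa21 and at -141 in Defa30, and these letters were not in the Lyz1 window. The window of Defa22, at chr8:21162027-21162276, was identical to that of Defa21 in all 250 bases. All 5 alpha-defensin genes with a promoter entry, of the 13 that could be tested for expression, held the core at least once, against 13.8% of all 32851 promoter windows of this length. Among the other granule products 5 of 13 windows, from 12 genes, held it, and among stem cell marker genes 5 of 28 windows, from 20 genes. Mmp7 had 2 windows and is among the granule genes with the core, but its window at chr9:7691840-7692089 did not hold it. These are matches of letters in a window, from genes that are partly copies of each other.

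The sort was checked first on the genes it used and on the defining markers. Expression is given as counts scaled to a common library total with TMM factors (TMM-normalised CPM), which align the bulk of genes between libraries, and each range covers 12 samples per cell type. Lyz1 (chr10:117287797-117292868), the lysozyme of Paneth granules, had 42142 to 98593, median 73249, in the Paneth samples and 45.3 to 328, median 112, in the ISC samples. Mmp7 (chr9:7692090-7699585), matrilysin, had 1887 to 8317, median 5132, in the Paneth samples and 3.03 to 27.7, median 19.4, in the ISC samples. For both genes every Paneth sample lay far above every ISC sample. Lgr5 (chr10:115450311-115587780), whose locus drives the sorted GFP, had 5.96 to 57.9, median 25.1, in the Paneth samples and 58.7 to 111.04, median 80.3, in the ISC samples. All Paneth samples were below all ISC samples, but none was at 0. Cd24a, which encodes the sorted surface protein CD24, had 419 to 1279.6, median 797, in the Paneth samples and 131 to 296, median 183, in the ISC samples, without overlap. Epcam, high in both gates, had 175 to 333.4, median 275, in the Paneth samples and 296 to 484, median 373, in the ISC samples, and the groups overlapped. Lgr5, Cd24a and Epcam were used by the sort and are not findings. The plot of marker levels by sample shows these genes beside other markers.

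**Figure D1:**
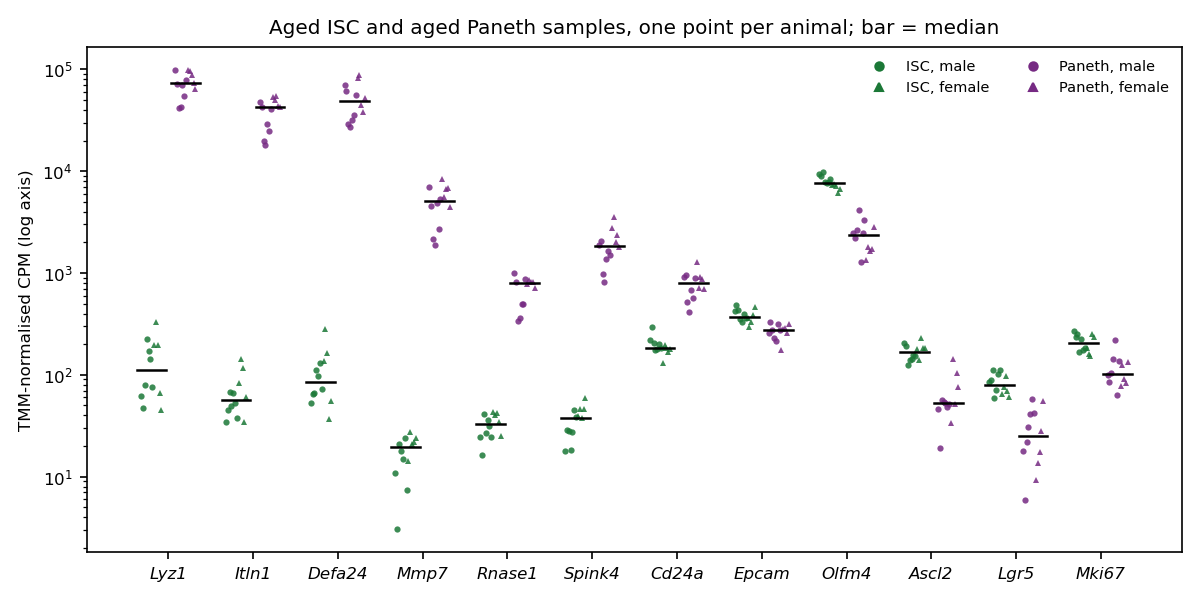
TMM-normalised CPM (log axis) of 12 genes in the 12 aged ISC samples (green) and the 12 aged Paneth samples (purple), with circles for males, triangles for females and a bar at each group's median. The Paneth products Lyz1, Itln1, Defa24, Mmp7, Rnase1 and Spink4 lie above all ISC samples in every Paneth sample, while Olfm4 and Lgr5 lie below and Ascl2, Epcam and Mki67 overlap.

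Markers of several other cell types of the crypt and mucosa were also more abundant in the Paneth gate, and these sums stand beside every later result. To set whole lists side by side, the CPM of a list's genes was summed over the counts from nuclear genes only (summed nuclear CPM). Goblet cell markers summed to 7652 to 16867, with a median of 9918, in the Paneth samples and 789 to 3403, with a median of 1346, in the ISC samples. Enteroendocrine markers summed to 234 to 4489, with a median of 2533, in the Paneth samples and 1.81 to 78.7, with a median of 53.4, in the ISC samples, and tuft cell markers to 332.6 to 1699.8, with a median of 745, in the Paneth samples and 12.1 to 54.8, with a median of 27.1, in the ISC samples. In all 3 lists the groups did not overlap. Enterocyte markers summed to 2518 to 7257, with a median of 3641, in the Paneth samples and 1874 to 2414, with a median of 2074, in the ISC samples, again without overlap but with medians only 1.76-fold apart. T cell and intraepithelial lymphocyte markers summed to 33.5 to 213, with a median of 86.1, in the Paneth samples and 0.539 to 15.8, with a median of 6.01, in the ISC samples. B and plasma cell markers had medians of 56.0 in Paneth and 4.38 in ISC samples, and stromal and endothelial markers 39.6 and 0.625, both with overlap. Myeloid markers went the other way, with medians of 83.9 in Paneth and 114 in ISC samples, also with overlap. By comparison, the Paneth granule products and alpha-defensins summed to 170330.0 to 331450.0, with a median of 265860.0, in the Paneth samples and 1026 to 7448, with a median of 1804, in the ISC samples, a 147-fold difference of medians. How far the other cell types contribute to any single gene's difference was not tested, and in bulk RNA more cells of a type cannot be told apart from more RNA per cell.

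**Figure D2:**
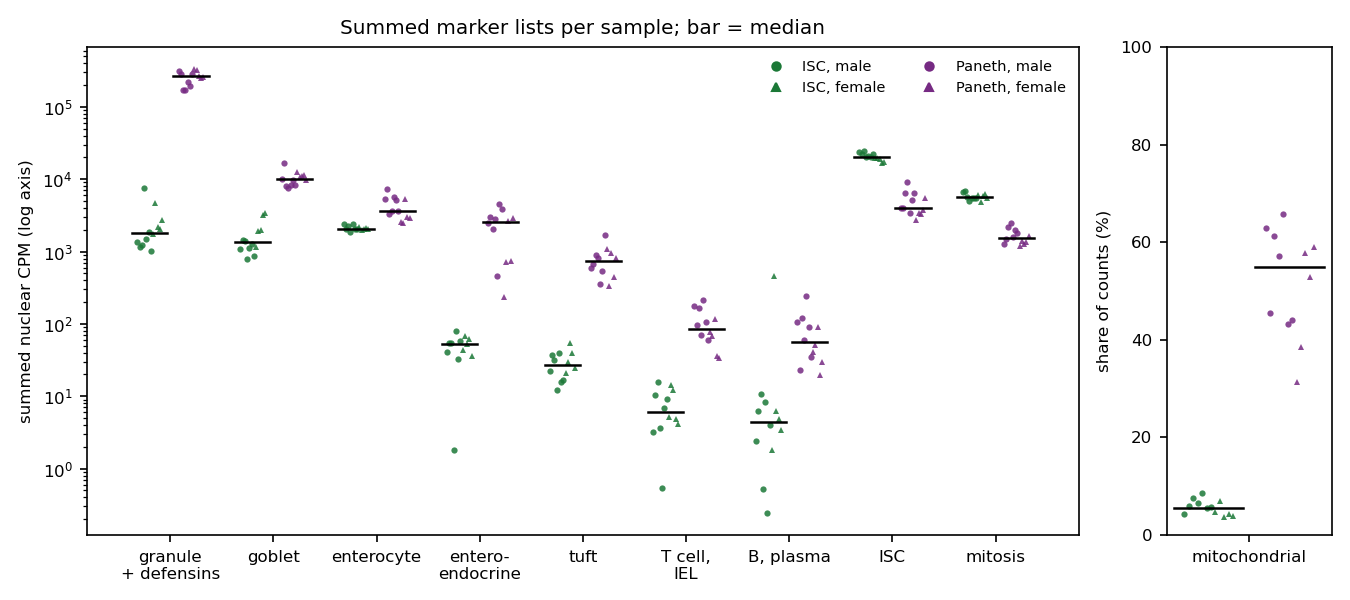
Left, summed nuclear CPM (log axis) of marker lists in each aged ISC (green) and aged Paneth sample (purple), with the group medians as bars. Right, the percentage of all counts that came from the mitochondrial genome, with medians of 5.64% in ISCs and 55.0% in Paneth cells.

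Sequencing depth was 2176833 to 5552058 counts per ISC sample and 4017746 to 11821614 per summed Paneth sample. Transcripts of the mitochondrial genome took 31.4% to 65.8% of the counts in Paneth samples, with a mean of 51.6% ± 10.9 (SD, n = 12), and 3.60% to 8.64% in ISC samples, with a mean of 5.63% ± 1.56 (SD, n = 12). The difference of 46.0 percentage points had p = 2e-05 in a two-sided permutation test, the smallest value that its 100000 resamples allow. Within the 8 animals with both cell types it was 45.9 points and had the same sign in every animal (exact sign-flip test, p = 0.00781, the smallest possible with 8 pairs). The 10 most counted genes took 63.9% ± 6.6 of Paneth counts and 10.7% ± 1.4 of ISC counts (SD, n = 12 each). Over all Paneth samples these were 5 mitochondrial transcripts, led by mt-Nd4 with 19.4%, mt-Cytb with 14.6% and mt-Nd1 with 10.3% of the counts, and the secreted products Lyz1 with 4.3%, Defa24 with 3.17%, AY761184 with 2.37%, Itln1 with 2.27% and Defa30 with 1.31%. Because so few transcripts fill the Paneth libraries, the scale matters for all other genes.

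Each gene was tested with edgeR's quasi-likelihood test as the mean of the male and the female difference, and a gene was called at a Benjamini-Hochberg adjusted p below 0.05. Of 11975 genes tested, 2857 (23.9%) were called: 1791 (15.0%) were higher and 1066 (8.90%) lower in aged Paneth cells. Called differences of at least 32-fold were nearly all on the Paneth side, with 189 genes higher and 5 lower. On unscaled library totals the median of all genes fell by 1.62 on the log2 scale and the split became 414 higher to 9653 lower, so every direction given here is relative to the median gene, whose log2 difference was 0.0042 under TMM. A gene that rose by less than 1.62 may therefore hold a smaller share of all RNA in Paneth cells even though it rose against the other genes. The Paneth samples of a group varied more than the ISC samples, with a biological coefficient of variation of 0.729 against 0.445.

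Antimicrobial and digestive granule products rose by large factors. Of 17 granule genes found, 14 had enough counts to be tested, 13 of these were higher (15.0% of all genes) and none lower, and 11 did not overlap between the groups, against 2.46% of all genes with every Paneth sample above every ISC sample. Most of these genes could pass the filter on low counts through the Paneth samples alone, so the count describes the list and supports nothing further. Itln1, an intelectin that binds microbial sugars, had 17911 to 54130.0, median 42482, in the Paneth samples and 34.4 to 143, median 56.5, in the ISC samples. Ang4, an angiogenin with bactericidal activity, had 3735 to 11337, median 6423, in the Paneth samples and 3.06 to 43.6, median 11.05, in the ISC samples. Reg4 had 368.1 to 1358, median 788, in the Paneth samples and 0 to 4.6, median 1.06, in the ISC samples. In each of these 3 genes the groups were separated by a factor of more than 80 at their nearest samples. Lyz1 had a log2 fold change of 9.07 ± 0.44 (SE, edgeR adjusted p = 1.08e-12), Itln1 a log2 fold change of 9.21 ± 0.30 (SE, edgeR adjusted p = 6.22e-16), Ang4 a log2 fold change of 9.13 ± 0.47 (SE, edgeR adjusted p = 2.43e-12) and Reg4 a log2 fold change of 9.22 ± 0.45 (SE, edgeR adjusted p = 5.74e-13). The pentraxin gene Mptx2 differed by 9.52 ± 0.66 and the colipase gene Clps by 8.24 ± 0.53. The pancreatic-type lipase gene Pnliprp2 differed by 8.32 ± 0.43 and Habp2 by 7.84 ± 0.74 on the same scale. Rnase1, a secreted ribonuclease, had 337.9 to 992, median 792, in the Paneth samples and 16.3 to 43.3, median 33.1, in the ISC samples, with a log2 fold change of 4.43 ± 0.18 (SE, edgeR adjusted p = 3.50e-20). Tff3, a trefoil peptide that goblet cells also secrete, differed by 2.75 ± 0.21.

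The Reg3 lectins had wide ranges in ISCs. Reg3g, which binds Gram-positive bacteria, had 262 to 2322, median 1135, in the Paneth samples and 79.8 to 1717, median 147, in the ISC samples, and its log2 fold change of 2.03 ± 0.56 (SE, edgeR adjusted p = 0.01) was called although the groups overlapped. The call was lost in males alone (1.52, edgeR adjusted p = 0.263), when mice of 26 and 27 months were left out (1.64, 0.101) and on unscaled totals (0.40, 0.487). Reg3b had 143.8 to 1578, median 572, in the Paneth samples and 56.9 to 1600.1, median 139.9, in the ISC samples and was not called, with a log2 fold change of 1.24 ± 0.59 (SE, edgeR adjusted p = 0.142). For both genes the highest ISC value came from 1 sample, aged male 4. Without that sample Reg3b reached a log2 fold change of 2.06 (edgeR adjusted p = 0.00114), and with the animal as a block 1.84 (edgeR adjusted p = 4.02e-05), while unscaled totals turned its sign to -0.38. Reg3a had 2.96 to 149.8, median 14.0, in the Paneth samples and 0 to 6.13, median 2.06, in the ISC samples, and its log2 fold change of 3.66 ± 0.67 (SE, edgeR adjusted p = 1.81e-04) was not called in females alone (2.31, edgeR adjusted p = 0.069).

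The alpha-defensin genes with enough counts were higher in Paneth cells. All 22 genes with such a symbol lie in 1 cluster, and reads of near-identical copies may be divided or lost between them, so values of single members are uncertain. Of the 22, 2 had no count and 7 more were too low to be tested. All 13 tested genes were called higher, against 15.0% of all genes, and had every Paneth sample above every ISC sample, against 2.46%, although in scarce members the lowest Paneth samples were under 1 CPM. As with the granule products, many could pass the count filter through the Paneth samples alone and then had to differ. Defa24, the most counted member, had 27057 to 87682, median 48515, in the Paneth samples and 36.8 to 281, median 85.2, in the ISC samples. Defa30 had 10275 to 39918, median 18389, in the Paneth samples and 9.76 to 95.7, median 27.0, in the ISC samples, and Defa21, whose promoter is shown above, 373 to 3482, median 1705, in the Paneth samples and 0.478 to 10.1, median 3.02, in the ISC samples. The lowest Paneth sample thus exceeded the highest ISC sample by more than 35-fold in each of these 3 members. Their log2 fold changes were 8.92 ± 0.42, 9.32 ± 0.46 and 9.08 ± 0.57, and those of Defa22 and Defa17 were 8.62 ± 0.60 and 8.72 ± 0.58. Defa34 and Defa5 had no count in any ISC sample and were at least 149-fold and 85.6-fold higher, taking 3 counts over the ISC group as the floor on unscaled totals. Defa27 had 1185 counts in Paneth cells and 1 in ISCs, a ratio of 660.1 on unscaled totals with an exact 95% counting interval of 118 to 26094. AY761184, which lies at chr8:21702519-21703645 between these genes, had 18574 to 60944, median 42169, in the Paneth samples and 26.4 to 171, median 48.7, in the ISC samples. With the copies at 0 in ISCs set to their bound, the list's median log2 fold change was 8.87, and 8.92 as fitted.

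Among the signals that Paneth cells are known to give to stem cells, 5 of 11 tested genes were higher, against 15.0% of all genes, and none lower. The median was 1.01 beside 0.0042 over all genes. Genes absent or scarce in ISCs, such as Notum, Bst1 and Wnt3, could pass the count filter through the Paneth samples alone. The count therefore describes the list and supports nothing further. Wnt3, the Wnt ligand of Paneth cells, had 35.5 to 149, median 109, in the Paneth samples and 0 to 5.62, median 1.04, in the ISC samples. Every Paneth sample exceeded every ISC sample, and the difference was a log2 fold change of 6.02 ± 0.53 (SE, edgeR adjusted p = 5.29e-09). Egf, the growth factor, had 0.826 to 46.6, median 18.4, in the Paneth samples and 0 to 6.31, median 2.24, in the ISC samples, with overlap between the groups and a log2 fold change of 3.09 ± 0.52 (SE, edgeR adjusted p = 1.90e-05). Notum, a secreted enzyme that inactivates Wnt ligands, had 0 counts in all ISC samples and 0 to 22.04 TMM-normalised CPM in Paneth samples. It was at least 63.5-fold higher on unscaled totals with the same floor. Bst1, an enzyme that produces cyclic ADP-ribose in the niche, had 0 to 37.6, median 5.46, in the Paneth samples and 0 to 0.368, median 0, in the ISC samples, and a log2 fold change of 6.80 ± 0.90 (SE, edgeR adjusted p = 2.33e-07). Dll4, a Notch ligand, had 2.29 to 25.4, median 14.3, in the Paneth samples and 1.23 to 9.55, median 5.77, in the ISC samples. Its log2 fold change of 1.32 ± 0.38 (SE, edgeR adjusted p = 0.00793) was the weakest call of the list: it was lost with the animal as a block (1.27, edgeR adjusted p = 0.111), in males alone (1.32, 0.105) and in females alone (1.36, 0.0849), and unscaled totals gave -0.23. The other 6 tested ligand genes had log2 fold changes between -1.17 and 1.01 and did not pass.

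Receptors and feedback regulators of these signals went mostly the other way, with a median of -0.49. Of 20 genes, 7 were lower, among them Lgr5 of the sort, against 8.90% of all genes. Only 1 was higher, against 15.0% of all genes. Fzd7, a Wnt receptor of stem cells, had 1.18 to 20.7, median 7.07, in the Paneth samples and 11.7 to 38.7, median 27.9, in the ISC samples, and Notch1 2.8 to 23.0, median 13.7, in the Paneth samples and 19.7 to 48.6, median 34.9, in the ISC samples. Both overlapped between the groups, and their log2 fold changes were -1.71 ± 0.31 and -1.44 ± 0.28 (edgeR adjusted p = 5.72e-05 and 1.44e-04). Rnf43, a ligase that removes Wnt receptors from the surface, also fell, with -0.91 ± 0.20, as did Lrig1, a restraint on EGF receptors, with -0.92 ± 0.23. Notch2, counted at 0 to 3.79 TMM-normalised CPM over all samples, and Bmpr1a, a BMP receptor, passed narrowly at edgeR adjusted p = 0.0307 and 0.0333. The call of Notch2 was lost when any of 5 samples was left out, ISC male 5 and Paneth females 1, 2, 3 and 4. It was also lost with DESeq2 (adjusted p = 0.0502) and without the filter on low counts (edgeR adjusted p = 0.0547). The same held with cell type alone in the model (edgeR adjusted p = 0.0818) and without mice of 26 and 27 months (0.119). The call of Bmpr1a was lost without any of 6 samples, ISC males 3, 4 and 7, ISC female 1 and Paneth females 2 and 3. It was also lost with the animal as a block (-0.79, edgeR adjusted p = 0.0758) and without mice of 26 and 27 months (-0.50, 0.269). The exception in direction was Kit, a receptor tyrosine kinase known as a marker of secretory cells at the crypt base, which had 16.6 to 122.6, median 44.8, in the Paneth samples and 0.111 to 14.7, median 4.9, in the ISC samples, with no overlap and a log2 fold change of 3.39 ± 0.39 (SE, edgeR adjusted p = 1.80e-08).

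Most stem cell markers fell but were still counted in the Paneth gate. Of 28 genes, 20 were lower and none higher, with a median log2 fold change of -1.03, and 5 had every Paneth sample below every ISC sample, against 0.418% of all genes (8.90% were called lower). Lgr5 is among them and was used by the sort. Olfm4, a secreted glycoprotein abundant in stem cells, had 1289 to 4110.5, median 2337, in the Paneth samples and 6076 to 9851, median 7711, in the ISC samples. The groups did not overlap, and the difference was a log2 fold change of -1.78 ± 0.13 (SE, edgeR adjusted p = 1.17e-13). Smoc2, a matricellular protein, had 125 to 285, median 196.5, in the Paneth samples and 321 to 464, median 359, in the ISC samples, and Cdca7 82.0 to 171, median 124.5, in the Paneth samples and 246 to 337, median 274, in the ISC samples, again without overlap. Their log2 fold changes were -0.90 ± 0.11 and -1.11 ± 0.11. Slc12a2, an ion cotransporter, had 86.0 to 201, median 122.99, in the Paneth samples and 252 to 436, median 311, in the ISC samples, without overlap, and differed by -1.21 ± 0.14. Ascl2, the transcription factor that sustains the stem cell programme, had 19.3 to 142, median 52.6, in the Paneth samples and 126.03 to 230.1, median 168, in the ISC samples, where the highest Paneth sample entered the ISC range. It had a log2 fold change of -1.46 ± 0.18 (SE, edgeR adjusted p = 5.39e-08). The largest falls of the list were those of Slc14a1 and Esrrg, with -2.30 ± 0.46 and -2.14 ± 0.49, and Gkn3 and Prom1 differed by -1.76 ± 0.31 and -0.65 ± 0.13. Summed over the list, the markers stood at 2688 to 9269, with a median of 3952, in the Paneth samples and 16471 to 24665, with a median of 20204, in the ISC samples. The Paneth median was 0.196-fold the ISC median, and the groups did not overlap.

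Targets of Wnt signalling were lower in part. Of 18 tested, 7 were lower, among them Lgr5 of the sort, against 8.90% of all genes. The 2 higher genes did not exceed the share of all genes called higher, 15.0%, and 1 of them turned negative on unscaled totals. The median was -0.54. Axin2, the general feedback target, had 9.61 to 65.8, median 39.0, in the Paneth samples and 47.5 to 103, median 76.9, in the ISC samples, with overlap and a log2 fold change of -1.03 ± 0.22 (SE, edgeR adjusted p = 4.77e-04). Myc, which drives growth and division, had 16.6 to 98.2, median 45.2, in the Paneth samples and 72.0 to 156, median 99.8, in the ISC samples and a log2 fold change of -1.11 ± 0.21 (SE, edgeR adjusted p = 1.00e-04). Ephb2, a guidance receptor of the crypt base, had 20.7 to 84.3, median 47.4, in the Paneth samples and 49.3 to 83.4, median 64.9, in the ISC samples and did not pass (log2 fold change -0.40 ± 0.19, edgeR adjusted p = 0.134). Sox9, which is needed for Paneth cells to form and is also present in stem cells, had nearly the same level in both, 24.4 to 122, median 61.5, in the Paneth samples and 31.4 to 87.1, median 62.6, in the ISC samples, with a log2 fold change of 0.11 ± 0.21 that turned to -0.14 with the animal as a block and was not called under either (edgeR adjusted p = 0.771 and 0.721). The higher members included Notum, described above.

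Transcription factors of the secretory lineage rose in part relative to the median gene. Of 15 secretory factors, 10 were higher, against 15.0% of all genes, none lower, and the median was 1.41, although 3 of the 10 turned negative on unscaled totals. Factors scarce in ISCs, such as Bhlha15, could pass the count filter through the Paneth samples alone. Bhlha15 (MIST1), which builds up the secretory apparatus, had 69.0 to 277, median 156, in the Paneth samples and 0 to 4.6, median 0.92, in the ISC samples. Spdef, a factor of goblet and Paneth maturation, had 37.1 to 122, median 65.6, in the Paneth samples and 0.123 to 13.5, median 5.2, in the ISC samples, and Atoh1, the master factor of the secretory lineage, 21.6 to 95.7, median 60.1, in the Paneth samples and 0.963 to 13.4, median 6.97, in the ISC samples. None of these 3 genes overlapped between the groups. Their log2 fold changes were 6.95 ± 0.48, 4.04 ± 0.38 and 3.197 ± 0.34. Creb3l1 and Creb3l4, factors anchored in the endoplasmic reticulum, differed by 3.54 ± 0.30 and 2.87 ± 0.27. Gfi1, which represses the enteroendocrine fate, had 0 to 19.1, median 12.2, in the Paneth samples and 0 to 1.77, median 0.308, in the ISC samples, and a log2 fold change of 4.13 ± 0.72 (SE, edgeR adjusted p = 2.79e-05). Xbp1, the factor of the unfolded protein response, had 226 to 609, median 422, in the Paneth samples and 115 to 252, median 159.9, in the ISC samples, with slight overlap and a log2 fold change of 1.2998 ± 0.13 (SE, edgeR adjusted p = 5.88e-10), and Klf4 differed by 1.41 ± 0.25. On unscaled totals Xbp1 stood at -0.30 and Klf4 at -0.21. Foxa3 was called at edgeR adjusted p = 0.00906, but not with the animal as a block (edgeR adjusted p = 0.132). Atoh1 and Spdef also belong to the goblet list, whose sum moved with the gate as given above, and the part of goblet cells was not tested.
Of 19 tested factors of the crypt and the absorptive lineage, 3 were lower and 2 higher, with a median of -0.22. The share called, 26.3%, was near the 23.9% of all genes. Both higher genes turned negative on unscaled totals, and none was called higher with the animal as a block, with limma-voom or without ISC female 2. The lower ones were Ascl2, Myc and Hnf4a, an enterocyte factor with 184 to 315.4, median 249, in the Paneth samples and 225 to 397, median 329, in the ISC samples and a log2 fold change of -0.36 ± 0.10 (SE, edgeR adjusted p = 0.00602). The call of Hnf4a was lost in males alone (edgeR adjusted p = 0.141), in females alone (0.131) and when mice of 26 and 27 months were left out (0.0587). Cdx2, the intestinal identity factor, had 5.93 to 43.8, median 20.1, in the Paneth samples and 17.2 to 31.7, median 24.0, in the ISC samples and did not pass (log2 fold change -0.33 ± 0.25, edgeR adjusted p = 0.375).

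The machinery for folding and exporting proteins was higher relative to the median gene. In the list of the unfolded protein response and folding in the endoplasmic reticulum (ER), 18 of 29 tested genes were higher and none lower. Among all genes 15.0% were higher. The median of the list was 0.97, and 11 of the 18 turned negative on unscaled totals. P4hb, a disulfide isomerase, had 1044 to 2378, median 1723, in the Paneth samples and 368.3 to 487, median 433, in the ISC samples. Edem1, which marks misfolded proteins for disposal, had 33.7 to 133, median 91.0, in the Paneth samples and 11.1 to 27.0, median 15.3, in the ISC samples, and Dnajc3, a co-chaperone that restrains the kinase PERK, 62.5 to 232, median 133, in the Paneth samples and 21.8 to 41.9, median 30.2, in the ISC samples. No Paneth sample overlapped an ISC sample in any of the 3 genes. They had log2 fold changes of 2.01 ± 0.11, 2.44 ± 0.19 and 2.14 ± 0.17, with edgeR adjusted p = 1.69e-16, 6.88e-13 and 3.49e-12, and Edem2 differed by 1.93 ± 0.17. Ern2 (IRE1 beta), the stress sensor of mucosal secretory cells, had 25.01 to 126.02, median 63.6, in the Paneth samples and 0.134 to 12.8, median 4.08, in the ISC samples and a log2 fold change of 3.87 ± 0.41 (SE, edgeR adjusted p = 7.90e-09). Hspa5 (BiP), the main chaperone of the ER, moved far less, with 313 to 835, median 532, in the Paneth samples and 279 to 518, median 379, in the ISC samples and a log2 fold change of 0.43 ± 0.12 (SE, edgeR adjusted p = 0.00497). Hspa5 fell to -1.19 on unscaled totals, and it was not called in females alone (0.20, edgeR adjusted p = 0.421) or when mice of 26 and 27 months were left out (0.31, 0.0631).
In ER translocation and glycosylation, 17 of 26 were higher, against 15.0% of all genes, and none lower, with a median of 0.59. However, 16 of the 17 turned negative on unscaled totals. Sec61a1, the pore of the translocon, had 104 to 323, median 212, in the Paneth samples and 65.8 to 115.9, median 94.7, in the ISC samples and a log2 fold change of 1.19 ± 0.14 (SE, edgeR adjusted p = 4.31e-08), and Tram1, which assists it, had 7.91 to 73.8, median 40.0, in the Paneth samples and 7.72 to 16.3, median 9.47, in the ISC samples and a log2 fold change of 2.12 ± 0.26 (SE, edgeR adjusted p = 5.41e-08). In both genes the groups overlapped slightly. Ssr4 and the signal peptidase subunit Sec11c differed by 0.94 ± 0.12 and 1.06 ± 0.14.
Vesicle transport and exocytosis held 18 higher genes of 28, against 15.0% of all genes, and none lower, with a median of 0.53. On unscaled totals 11 of the 18 turned negative. Rab3d, a GTPase of secretory granules, had 66.1 to 169.8, median 114, in the Paneth samples and 17.6 to 28.7, median 24.3, in the ISC samples. Sytl1, a partner of granule Rab proteins, had 31.6 to 127, median 65.8, in the Paneth samples and 3.37 to 14.1, median 9.53, in the ISC samples. Both genes were separated between the groups and had log2 fold changes of 2.21 ± 0.16 and 3.04 ± 0.23 (edgeR adjusted p = 1.04e-13 and 4.60e-13). The cargo receptor Tmed3 and the coat subunit Sec24d differed by 1.64 ± 0.15 and 4.03 ± 0.39. In summed nuclear CPM the medians of these lists were closer, at 1.46-fold for folding, 0.923-fold for translocation and 0.995-fold for vesicle transport, and the groups overlapped in all 3. The plot of list members shows how these lists spread.

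**Figure D3:**
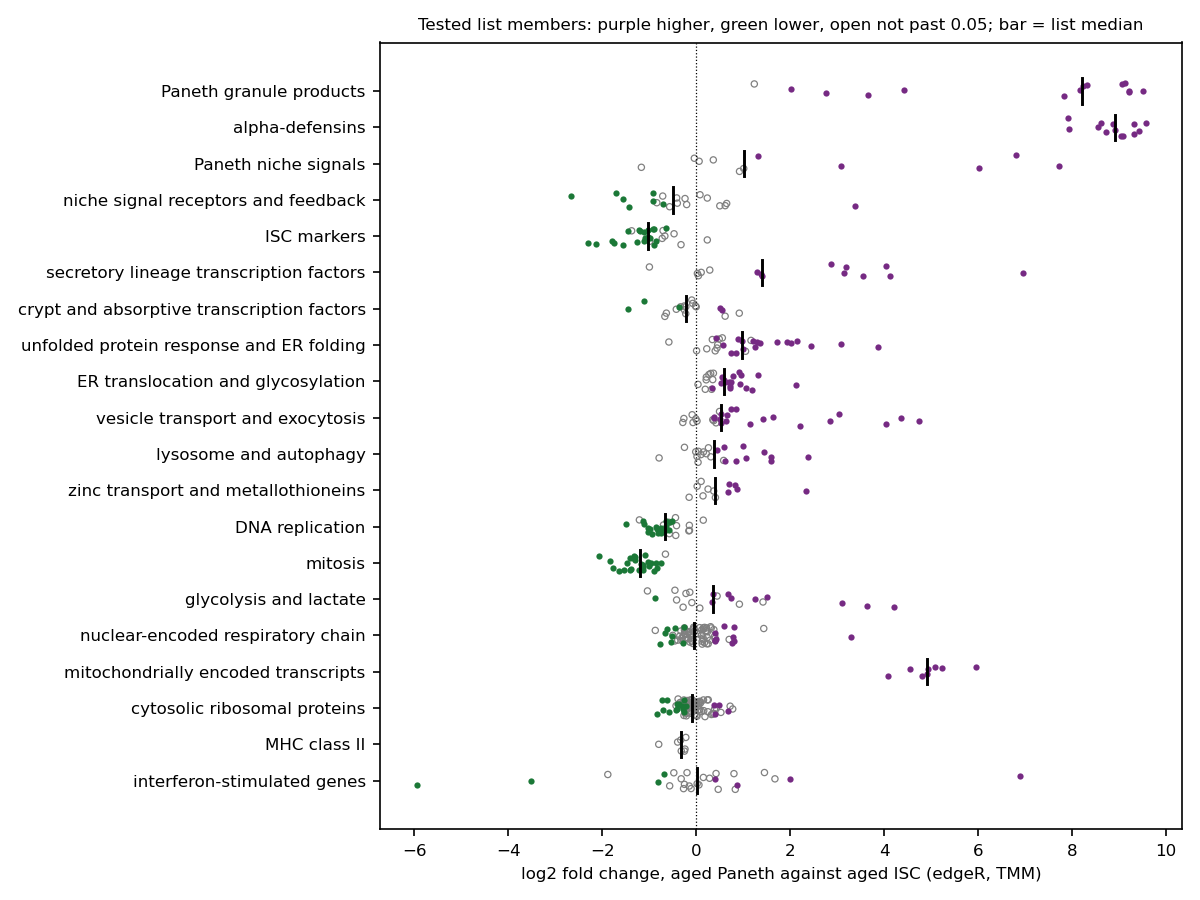
Log2 fold change of each tested list member, aged Paneth against aged ISC (edgeR, TMM), with filled purple points for genes called higher, filled green for genes called lower, open points for genes that did not pass, and a bar at the median. Granule products, alpha-defensins and mitochondrially encoded transcripts lie far to the right, and mitosis and stem cell markers lie to the left.

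**Figure D4:**
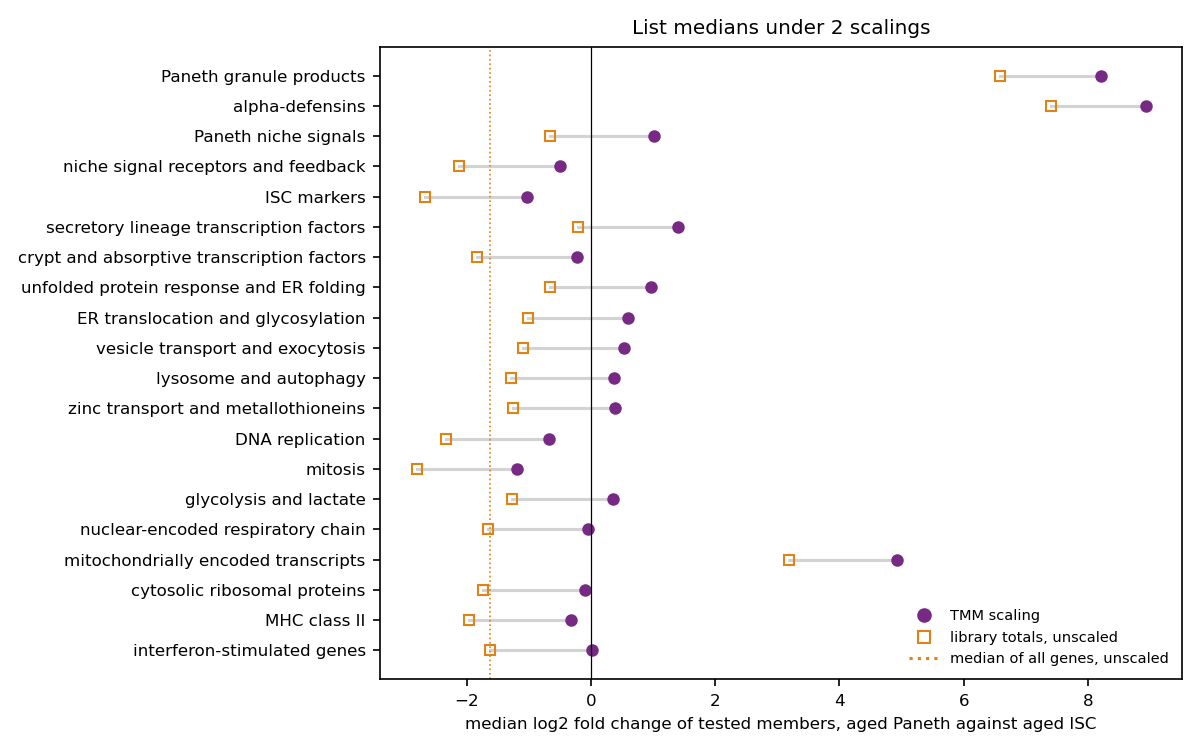
Median log2 fold change of the tested members of each list under TMM scaling (filled purple circles) and on unscaled library totals (open orange squares), with a dotted line at the unscaled median of all genes. The granule, defensin and mitochondrially encoded lists stay positive under both scalings, and the lists of the secretory apparatus turn negative on unscaled totals but stay above the line.

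Lysosomal, autophagy and zinc genes rose in part. Of 22 lysosome and autophagy genes, 10 were higher, against 15.0% of all genes, with a median of 0.38, and 9 of the 10 turned negative on unscaled totals. Atg7, an enzyme that autophagosomes need to form, was the exception, with 27.1 to 119.5, median 58.4, in the Paneth samples and 8.03 to 18.2, median 11.4, in the ISC samples, no overlap and a log2 fold change of 2.37 ± 0.22 (SE, edgeR adjusted p = 6.85e-11). Sqstm1 (p62), a receptor that delivers cargo to autophagosomes, had 93.0 to 169, median 152, in the Paneth samples and 26.4 to 63.3, median 44.1, in the ISC samples, also without overlap, and differed by 1.59 ± 0.15. The lysosomal genes Lamp2 and Ctsd differed by 1.58 ± 0.20 and 1.07 ± 0.15. Among 12 tested genes of zinc transport and metallothioneins, 5 were higher, against 15.0% of all genes, and none lower. On unscaled totals 4 of the 5 turned negative. Slc30a2 (ZnT2), which fills Paneth granules with zinc, had 13.8 to 103, median 38.2, in the Paneth samples and 5.62 to 16.99, median 8.96, in the ISC samples, with overlap and a log2 fold change of 2.33 ± 0.27 (SE, edgeR adjusted p = 1.45e-08). The importers Slc39a4 and Slc39a5 and the Golgi transporter Slc30a7 differed by 0.71 ± 0.15, 0.68 ± 0.15 and 0.82 ± 0.23.

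Genes of cell division were lower in aged Paneth cells. In the list of mitosis genes 27 of 28 were lower, against 8.90% of all genes, and none higher, with a median of -1.19. Of them 12 were separated between the groups, against 0.418% of all genes. Ube2c, which directs the destruction of mitotic cyclins, had 71.1 to 208, median 119.8, in the Paneth samples and 243 to 495, median 346, in the ISC samples. Cdk1, the mitotic kinase, had 17.7 to 52.9, median 35.1, in the Paneth samples and 69.7 to 147, median 119.6, in the ISC samples, and Ccna2, a cyclin, 47.6 to 133, median 62.0, in the Paneth samples and 139 to 250.2, median 197.1, in the ISC samples. For each of these every Paneth sample was below every ISC sample. The log2 fold changes were -1.53 ± 0.14, -1.64 ± 0.18 and -1.41 ± 0.16, with edgeR adjusted p = 6.91e-11, 2.74e-09 and 6.41e-09, and Aurkb differed by -1.22 ± 0.14. Mki67, the proliferation marker, had 63.3 to 218, median 102, in the Paneth samples and 153 to 271, median 205, in the ISC samples, with overlap and a log2 fold change of -0.89 ± 0.16 (SE, edgeR adjusted p = 3.33e-05). The gene that did not pass was Cenpe, a kinetochore motor, with -0.66 ± 0.27 (edgeR adjusted p = 0.08), and it was called with the animal as a block (-1.08, edgeR adjusted p = 0.0269) and without Paneth male 3, male 5 or female 5. The mitosis list summed to 1189 to 2504, with a median of 1531, in the Paneth samples and 4863 to 6921, with a median of 5628, in the ISC samples, and the Paneth median was 0.272-fold the ISC median.
DNA replication genes moved in the same direction, with 19 of 30 lower, against 8.90% of all genes, none higher and a median of -0.67. Rrm1, which makes deoxynucleotides, had 29.5 to 116.4, median 71.7, in the Paneth samples and 131.6 to 196.8, median 157, in the ISC samples, without overlap and with a log2 fold change of -1.14 ± 0.16 (SE, edgeR adjusted p = 5.58e-07). The helicase subunits Mcm2 and Mcm6 and the clamp Pcna differed by -0.97 ± 0.17, -0.74 ± 0.14 and -0.85 ± 0.17.

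Metabolic genes split by genome and by pathway. Of 13 mitochondrially encoded transcripts, 8 had enough counts to be tested and 5 did not. All 8 were higher, against 15.0% of all genes, and in 7 every Paneth sample was above every ISC sample, against 2.46%. Their log2 fold changes reached 5.94, with a median of 4.92 under TMM and 3.196 on unscaled totals. mt-Co1, the catalytic subunit of cytochrome oxidase, differed by 4.08 ± 0.18, mt-Nd4, a subunit of complex I, by 5.09 ± 0.24 and mt-Cytb, of complex III, by 4.90 ± 0.23. Of the 80 nuclear genes of the respiratory chain 10 were higher and 8 lower, with a median of -0.05, so 22.5% were called, near the 23.9% of all genes. Sdha, a subunit of complex II, had 181 to 432, median 337.7, in the Paneth samples and 406 to 626, median 507, in the ISC samples and a log2 fold change of -0.66 ± 0.11 (SE, edgeR adjusted p = 1.27e-05). Uqcrq, Ndufv3 and Ndufb7, subunits of complexes III and I, rose by 0.79 ± 0.14, 0.81 ± 0.15 and 0.76 ± 0.15, but each turned negative on unscaled totals. The part of the mitochondrial share in these values was not tested. Glycolysis held 9 higher and 1 lower gene of 21, against 15.0% and 8.90% of all genes, with a median of 0.36. On unscaled totals 6 of the 9 turned negative. Aldoa, aldolase, had 249 to 394, median 309.6, in the Paneth samples and 91.6 to 172, median 134, in the ISC samples, without overlap and with a log2 fold change of 1.24 ± 0.12 (SE, edgeR adjusted p = 1.52e-10). Pfkp, the committing step, and Pkm, pyruvate kinase, differed by 1.504 ± 0.20 and 0.74 ± 0.10. The lactate exporter Slc16a3 was called at 4.21 ± 0.83 (edgeR adjusted p = 1.72e-04) but not with the animal as a block (3.36, edgeR adjusted p = 0.0662). Of 77 cytosolic ribosomal protein genes, 14 were lower and 4 higher, with a median of -0.09. The share called, 23.4%, was near that of all genes. By direction, the share lower was above the 8.90% of all genes and the share higher below the 15.0%. The Paneth median of the summed list was 0.644-fold the ISC median in nuclear CPM, without overlap. It was 1.01-fold on the TMM scale, with overlap. All 4 higher genes turned negative on unscaled totals, and the number lower went from 9 to 17 when 1 sample was left out.

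Of the immune response genes, all 7 tested MHC class II genes had negative log2 fold changes, from -0.80 to -0.22 with a median of -0.32, but none passed the test. DESeq2 also called none, limma-voom called 1 lower, and the fit with the animal as a block called 3 lower. H2-Ab1, which presents antigen, had 251 to 1167, median 587, in the Paneth samples and 349.7 to 1118, median 697, in the ISC samples and its chaperone Cd74 146 to 388, median 208, in the Paneth samples and 126.03 to 402, median 232, in the ISC samples, and both overlapped almost completely. Of 27 interferon-stimulated genes 4 were higher and 4 lower, and 2 of the higher genes turned negative on unscaled totals. The share called was 29.6%, beside 23.9% of all genes. Irf7, an inducer of the interferon response, had 23.9 to 81.6, median 41.4, in the Paneth samples and 2.39 to 16.8, median 10.6, in the ISC samples, without overlap and with a log2 fold change of 2.01 ± 0.31 (SE, edgeR adjusted p = 2.97e-06). Oas2, a sensor of double-stranded RNA, was called at 6.90 ± 1.21, but its groups overlapped. Irf7 was the only gene of this list with every Paneth sample above every ISC sample. Ifitm3, a restriction factor at membranes, was lower, with 113 to 353.4, median 216, in the Paneth samples and 266 to 585, median 340.3, in the ISC samples and a log2 fold change of -0.69 ± 0.15 (SE, edgeR adjusted p = 3.83e-04). Iigp1, an interferon-induced GTPase, had 358 counts in ISCs and 3 in Paneth cells, a ratio of 214 on unscaled totals with a 95% counting interval of 72.7 to 1044. Its call was lost without ISC female 2 (edgeR adjusted p = 0.0859) and with limma-voom (adjusted p = 0.0833).

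The markers of other cell types were examined gene by gene, since many of them could pass the count filter through the Paneth samples alone and then had to differ. All 14 tested tuft cell genes of 20 were higher, against 15.0% of all genes, the share to set beside the count of each list below. Dclk1, a kinase of tuft cells, had 12.2 to 59.4, median 38.2, in the Paneth samples and 0 to 1.0, median 0, in the ISC samples and a log2 fold change of 7.72 ± 0.55 (SE, edgeR adjusted p = 1.40e-13), and Avil and Trpm5 differed by 5.86 ± 0.45 and 4.90 ± 0.44. Siglecf had no count in ISCs and was at least 237-fold higher on unscaled totals. Of 17 tested enteroendocrine genes 16 were higher. Chga, chromogranin A, had 57.4 to 1080.0, median 332, in the Paneth samples and 0 to 8.42, median 1.57, in the ISC samples and a log2 fold change of 7.90 ± 0.70 (SE, edgeR adjusted p = 2.07e-08). The hormone gene Gip varied from 7.96 to 1432 TMM-normalised CPM among Paneth samples, and Chgb and Cpe differed by 6.28 ± 0.69 and 7.10 ± 0.94. Neurog3, which starts the enteroendocrine fate, had 0 to 5.91, median 1.25, in the Paneth samples and 0 to 11.2, median 0.802, in the ISC samples and did not pass (log2 fold change 0.68 ± 0.84, -1.11 with the animal as a block). All 15 tested goblet genes of 17 were higher, 1 of which turned negative on unscaled totals. Muc2, the gel-forming mucin, had 627 to 2294, median 999, in the Paneth samples and 32.6 to 119, median 45.8, in the ISC samples and a log2 fold change of 4.28 ± 0.25 (SE, edgeR adjusted p = 2.40e-12), and Spink4, a peptide that Paneth and goblet cells share, 807 to 3541, median 1833, in the Paneth samples and 17.8 to 59.5, median 37.9, in the ISC samples and a log2 fold change of 5.71 ± 0.19 (SE, edgeR adjusted p = 2.67e-22). Guca2a differed by 3.84 ± 0.22. Of 24 enterocyte genes, 20 were higher and 1 lower, and 4 of the higher genes turned negative on unscaled totals. Apoa1, an apolipoprotein, had 174 to 1400.4, median 490.2, in the Paneth samples and 1.05 to 17.1, median 3.37, in the ISC samples, and Sis, sucrase-isomaltase, 21.8 to 204, median 44.1, in the Paneth samples and 1.25 to 9.44, median 4.88, in the ISC samples. Neither overlapped, with log2 fold changes of 7.12 ± 0.56 and 3.61 ± 0.35, and Rbp2 and Krt20 differed by 5.40 ± 0.46 and 4.45 ± 0.43.
Among T cell and intraepithelial lymphocyte genes, 5 of 6 tested were higher and 8 of 14 were not tested. Ccl5 had 1254 counts in Paneth cells and 3 in ISCs, a ratio of 233 on unscaled totals with a 95% counting interval of 79.5 to 1131. Gzmb and Nkg7, killer cell genes at 0 in ISCs, were at least 76.7-fold and 63.7-fold higher, and Gzma differed by 8.64 ± 0.85. Igkc, an antibody light chain, was high in 1 ISC sample, female 2, and therefore went from 0 to 145 in ISCs and 7.76 to 109 in Paneth cells. It was called at 3.95 ± 1.10, against -0.27 in females alone. Jchain was called at edgeR adjusted p = 0.0302, a call lost without any of 6 samples, ISC females 1, 3, 4 and 5 and Paneth females 2 and 4. The Jchain call was also lost with DESeq2 (adjusted p = 0.0781) and with limma-voom (adjusted p = 0.0623). Lyz2, the lysozyme of macrophages and a near copy of Lyz1 whose reads may be hard to separate from it, had 5.33 to 53.1, median 39.8, in the Paneth samples and 0 to 0.669, median 0, in the ISC samples. It was called at 7.75 ± 0.62, Cd14 was lower at -1.45 ± 0.29, and the other 3 of 5 tested myeloid genes did not pass. Of 12 stromal and endothelial genes Vim alone was tested, at 4.92 ± 0.73, and Col1a2, Kdr, Lum and Pdgfra had no count in any of the 24 samples. Across the 12 Paneth samples, the summed granule products and alpha-defensins were related to none of 6 other measures after adjustment. The closest was the goblet sum, with Pearson r = 0.606 (permutation p = 0.0345, adjusted 0.207) and Spearman rho = 0.671 (permutation p = 0.0192, adjusted 0.115). Without the 2 Paneth samples farthest from the median, males 3 and 4, r was 0.361.

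Outside all lists, the 10 largest rises among genes with at least 10 CPM in Paneth cells and no overlap between the groups included several that ISCs lacked altogether. Afp, alpha-fetoprotein, had 4.73 to 339 TMM-normalised CPM in Paneth samples, median 117, and no count in ISCs, and was at least 1460-fold higher on unscaled totals. Lamb1, a laminin chain, had 7.62 to 152, median 54.0, and was at least 605-fold higher. Pla2g2f, a secreted phospholipase, had 3342 counts against 1. The other 7 were Ces1c, Ints6l, Pygl, Sntb1, Copz2, Fxyd6 and Insrr, of which Ces1c, Ints6l, Pygl, Sntb1 and Fxyd6 were at 0 in ISCs. Among genes with at least 10 CPM in ISCs, and like the rises chosen for samples that do not overlap, the 10 largest falls had log2 fold changes between -2.33 and -1.48. Rgcc, a regulator of the cell cycle, had 2.54 to 24.0, median 8.37, in the Paneth samples and 30.5 to 97.7, median 52.0, in the ISC samples and a log2 fold change of -2.33 ± 0.32 (SE, edgeR adjusted p = 4.08e-07). Prelp, a matrix protein, had 11.8 to 113, median 40.0, in the Paneth samples and 131 to 202, median 169, in the ISC samples and a log2 fold change of -1.87 ± 0.23 (SE, edgeR adjusted p = 1.65e-07). Ckap2l, Trip13, Nek2, Ckap5 and Dbf4, which act in division or replication, differed by -1.75 ± 0.27, -1.60 ± 0.25, -1.57 ± 0.21, -1.53 ± 0.25 and -1.52 ± 0.25. Slc19a2, a thiamine transporter, Jaml, an adhesion protein, and Cps1, the first enzyme of the urea cycle, completed the set with -1.74 ± 0.21, -1.59 ± 0.19 and -1.48 ± 0.17.

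Within males 1304 genes (10.9%) were higher and 602 (5.03%) lower, and within females 905 (7.56%) and 379 (3.16%). A test of the difference between the sexes called 1 gene, Xist, the RNA that silences an X chromosome in females, with 606 genes at an unadjusted p under 0.05 of 11975 tested (0.00835% called). Xist was at 0 in all male ISC samples and reached 3.05 TMM-normalised CPM in male Paneth samples, and it ranged from 51.6 to 109 in female ISC samples and from 16.7 to 71.8 in female Paneth samples. The log2 difference was thus 5.46 in males and -1.01 in females, and the difference between these was 6.47 ± 1.12 (SE, edgeR adjusted p = 0.0301). DESeq2 called 6 genes, Xist, Slc16a7, Aldh1a7, Krt20 and 9830144P21Rik with a larger difference in males and D3Ertd751e with a larger one in females.

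The edgeR test called no gene whose contrast of Paneth cells with ISCs differed between ages. The young mice gave a separate set of 12 Paneth and 11 ISC samples, and 1 model of all 47 samples and 12863 genes tested whether the aged difference departed from the young one. It called 0 genes (0%), with 803 at an unadjusted p under 0.05, while DESeq2 called 10 and the fit with the animal as a block 3. Pdia2 and Dmbt1, both singled out after values were seen, were called by both of these alternatives. Dmbt1 differed by -0.86 with DESeq2 (adjusted p = 0.0442) and by -0.83 with the animal as a block (edgeR adjusted p = 0.011). In the edgeR model without a block 1958 genes (15.2%) were higher and 1181 (9.18%) lower in aged mice. In young mice these were 1885 (14.7%) and 1257 (9.77%). Of the 3139 genes called in aged and 3142 in young mice, 2105 were called at both ages, and all 2105 had the same sign. Genes called at both ages have clear differences at each, so this agreement was nearly fixed by the choice of genes. Lyz1 differed by 9.06 ± 0.42 in aged and 8.57 ± 0.42 in young mice (log2, SE), Olfm4 by -1.79 ± 0.15 and -1.78 ± 0.15, and Wnt3 by 6.01 ± 0.51 and 4.45 ± 0.47, and none of these 3 was called for a difference between ages. Pdia2, a protein disulfide isomerase known from the pancreas that was singled out after its values were seen, had 6.35 to 73.7 TMM-normalised CPM in young and 0 to 23.7 in aged Paneth samples. The difference between ages in its contrast of Paneth cells with ISCs was -5.32 ± 1.10 (SE, edgeR adjusted p = 0.104). This value takes in the ISC levels as well as the Paneth levels given. It was -7.05 with the animal as a block (edgeR adjusted p = 0.011) and -5.31 on unscaled totals (edgeR adjusted p = 0.0492). DESeq2 gave -5.43 (adjusted p = 0.013). Data were also simulated with the same level of each gene in all groups, apart from planted changes. On these the test recovered 56 of 100 genes with a 4-fold difference between ages and 13 of 100 with a 2-fold one. Moderate differences could thus go uncalled.

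**Figure D5:**
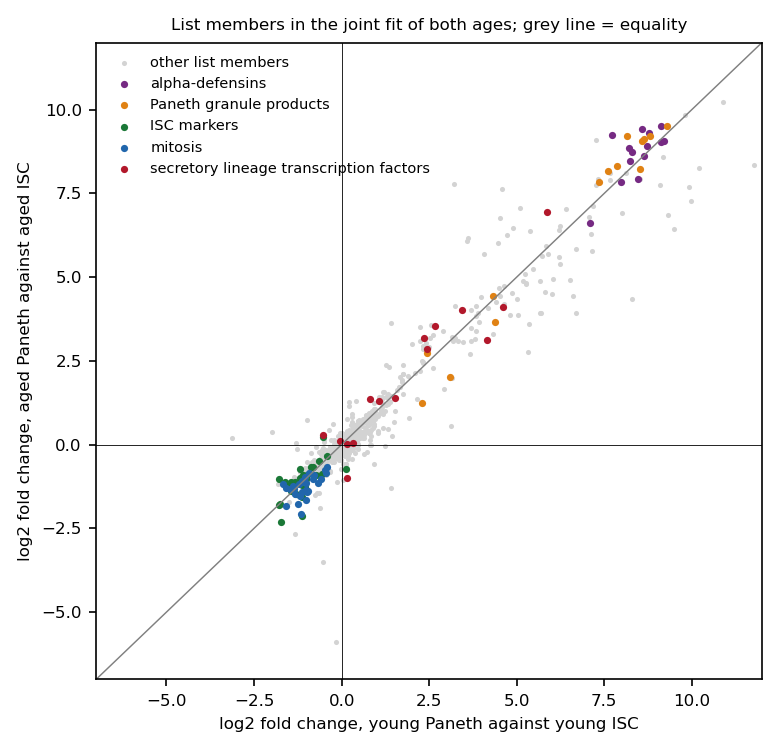
Log2 fold change of Paneth against ISC samples in young mice (horizontal axis) and aged mice (vertical axis) for 642 list members, from 1 model of both ages, with the line of equality. Alpha-defensins (purple) and most granule products (orange) lie at the upper right, stem cell markers (green) and mitosis genes (blue) mostly at the lower left, and secretory factors (red) between them.

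Technical libraries of Paneth cells set the precision of single values. The 35 libraries held 1082428 to 4203367 counts each. For Lyz1 the SD of log2 CPM was 0.094 between libraries of an animal and 0.28 between animals, and for Mmp7 0.14 and 0.56. For the scarce transcripts Lgr5 and Dclk1 it was 1.84 and 1.5 within animals against 1.54 and 0.89 between them. The values were nearly equal for Mki67, 0.541 within and 0.526 between animals, and for Hspa5, 0.333 and 0.364. For Itln1, Olfm4, Chga, Muc2 and Apoa4 the value within animals was the smaller. The value between animals is the SD of means over each animal's libraries, so it is not like the value for single libraries. Libraries of an animal thus differed less than these means did for Lyz1 and Mmp7, and more for Lgr5 and Dclk1.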

How the data were processed

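The deposited table holds read counts per gene and library, and the authors used cutadapt 3.0, STAR 2.7.9a, HTSeq 0.13.5 and DESeq2 1.30.1 with mm10, per the submitters' processing notes. The labels and notes do not name the annotation release or the strand setting, so antisense partners cannot be told apart. The samples, the gene lists and the rule for named genes were chosen with earlier results of these data known.

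Technical libraries were summed per animal, and low genes were removed with filterByExpr (minimum count 10). edgeR 4.0.16 (R 4.3.3) was run with TMM scaling and robust quasi-likelihood fits over 4 groups of cell type and sex, or 8 groups with age, and p-values were adjusted by Benjamini-Hochberg over all genes at 0.05. The standard error was taken as the absolute log2 fold change divided by the square root of F. DESeq2 1.42.0 and limma 3.58.1 (voom) were alternatives. Permutation tests used scipy 1.17.1. Gene coordinates came from GENCODE on GRCm38, the build of mm10. Named genes could be any member of the Paneth, niche, stem cell and transcription factor lists, the 4 members with the smallest p of the other lists, and outside the lists the 10 largest called changes in each direction among genes of at least 10 CPM whose samples did not overlap.

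On simulated counts of 11975 genes the comparison recovered 79 of 100 genes changed 4-fold and 36 of 100 changed 2-fold, with 6 false calls among the unchanged genes. Each gene had the same level in both cell types apart from these planted changes. The simulation thus lacked the shift of scale and the genes absent from ISCs, and cannot give the error rate under them. The labels name the animals, and 8 animals supplied both cell types. Residuals of samples from the same animal correlated with a median r of 0.0746 over 8 pairs, against -0.00622 over 135 pairs of different animals, and the fit with the animal as a block was an alternative. A Paneth animal whose name repeats that of an ISC animal with the addition 2nd was not taken to be the same mouse, and 1 animal is labelled 24 months for its ISCs and 23 months for its Paneth cells. Intervals and floors cover counting error only, since amplified reads without molecular identifiers are not independent molecules.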

Additional observations from a re-analysis of the deposited data

Results flagged for a closer look

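Values of 72 groups of 5 or 7 samples were examined for a sample that lay far from the others, a rule that chance meets in about 1 of 20 groups, and 6 samples stood apart. ISC male 2 had the highest Cd24a level of the male ISC samples, at 296.3 TMM-normalised CPM against 221.66 in the next. ISC male 4 had a summed level of granule products and alpha-defensins of 7448.3 nuclear CPM, against 1862.3 in the next male ISC sample, and also held the highest Reg3b and Reg3g levels of all ISC samples.

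Among Paneth samples, male 7 had a tuft cell sum of 1699.8 nuclear CPM, with 903.39 in the next male. Male 2 had a goblet sum of 16867 with 9996.9 in the next male, and female 3 an enterocyte sum of 5346.9 with 3024.1 in the next female. ISC female 2 had a sum of B and plasma cell markers of 454.72 nuclear CPM, against 6.2609 in the next female ISC sample, most of it from Igkc. The contrast of Paneth cells with ISCs differed between the sexes for Xist, by 6.47 on the log2 scale (edgeR adjusted p = 0.0301). The origin of these values was not tested.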

How the results depend on the processing

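Scaling moved the counts of calls most. The main comparison gave 1791 genes higher and 1066 lower, and unscaled library totals gave 414 and 9653. Limma-voom called 1968 genes lower, and 1 technical library per Paneth animal left 1063 higher. Males fitted alone gave 1018 higher and 423 lower, females alone 925 and 376, and without the animals of 26 and 27 months 710 were lower; these settings use fewer samples. Leaving out 1 sample at a time gave 1668 to 1828 higher and 936 to 1172 lower. The animal as a replicate block gave 1285 higher and 1069 lower. A block by the number in the sample title gave 1551 and 1404, but most Paneth and ISC samples that share this number came from different animals. For the difference between sexes DESeq2 called 5 genes higher and 1 lower. For the difference between ages, unscaled totals called 2 higher and 1 lower, DESeq2 4 and 6, and the animal block 3 lower, while leaving out 1 sample gave 0 to 1 in each direction. Those gained were Pde8a and Pdia2 without ISC male 3, and Pdia2 without Paneth male 5.

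On unscaled totals 23 of the 160 genes examined singly changed sign. The log2 fold changes became -0.38 for Reg3b, -0.23 for Dll4, -0.21 for Klf4, -0.26 for Foxa3, -0.30 for Xbp1, -1.53 for Sox9, -1.19 for Hspa5 and -0.46 for Sec61a1. They were -0.71 for Ssr4, -0.55 for Sec11c, -0.041 for Sqstm1, -0.024 for Lamp2, -0.57 for Ctsd, -0.90 for Slc39a4, -0.94 for Slc39a5 and -0.78 for Slc30a7. They were -0.40 for Aldoa, -0.15 for Pfkp, -0.90 for Pkm, -0.83 for Uqcrq, -0.80 for Ndufv3, -0.86 for Ndufb7 and -0.88 for Neurog3. With the animal as a block Sox9 and Neurog3 were at -0.14 and -1.11, and at -0.21 and -0.28 when the Paneth animal whose name repeats an ISC animal's was counted as that mouse. Among the genes named in the text, the block changed the call of Reg3b, Dll4, Bmpr1a, Foxa3, Slc16a3 and Cenpe as given above. Igkc was at -0.27 in females alone. Calls of Lrig1, Prom1 and Rnf43 were lost in males alone, those of Epcam and Slc39a4 in females alone, and those of Axin2, Cd14, Ckap5 and Lgr5 with 1 technical library per Paneth animal. Sums of lists on the TMM scale, as log2 differences, were 7.85 for granule products and alpha-defensins, 3.59 for goblet, 1.32 for enterocyte, -1.60 for stem cell and -1.21 for mitosis markers. The mitochondrial difference stayed between 44.7 and 47.8 percentage points when 1 sample was left out, and that of the 10 most counted genes between 52.2 and 54.1. Genes with few counts are limited by depth, and a fold change of a gene absent from ISCs depends on the floor.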
